A study of Mus musculus with 7 samples.

Results

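The transcription factors Snai1, Snai2, Twist1, Twist2, Zeb1, Zeb2, Prrx1 and Prrx2, together with the filament gene Vim, were followed through sorted mouse fetal mammary cells. These 9 genes were chosen by name from the 38579 gene entries of the deposited table, and each is listed once. The rule that picks them uses names and no measured value. The 8 factors drive epithelial-mesenchymal transition (EMT), in which epithelial cells give up their junctions and take on the shape, matrix and motility of mesenchyme. Snail and Zeb proteins are zinc-finger repressors that bind E-box motifs in genes of epithelial junctions, Twist proteins are basic helix-loop-helix factors that pair with E proteins, and Prrx proteins are paired-related homeodomain factors of mesenchyme. Vimentin is the intermediate filament of mesenchymal cells, and Snai2 is also known as a factor of basal mammary epithelium.

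RNA was sequenced from primary cells of CD1 mice at E17.5, late in gestation, sorted by either of 2 strategies into fetal mammary stem cells (fMaSC, a fraction enriched for them) and stroma, giving 7 libraries that the labels call biological replicates. Sorting on a Sox10-Venus reporter and EpCAM, an epithelial surface protein, gave Sox10+EpCAM+ fMaSC (n = 2) and EpCAM-negative, Sox10-negative stroma (n = 1). Sorting on CD24 and CD49f (an integrin) gave CD24+CD49f+ fMaSC (n = 2) and CD24low stroma (n = 2). The column names call all 7 libraries lineage-negative, whereas the label of Sox10+EpCAM+ replicate 1 does not. P-values measure the spread between these libraries. The EpCAM-negative stroma has no replicate, so its spread was taken from the other groups.

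Values are FPKM (fragments per kilobase of transcript, scaled to depth), which are per length and so can be set against each other between genes. Estimated depth ran from 22600000 to 34100000 fragments per library, and summed FPKM from 378952 to 752737. The genes behind the sorting markers were read in each fraction. Epcam reached 219 and 230 FPKM in Sox10+EpCAM+ fMaSC and 137 and 88.5 in CD24+CD49f+ fMaSC, beside 0.428 to 1.19 in the stroma libraries. Over the 4 fMaSC libraries Sox10 ranged from 58.0 to 110 FPKM, Cd24a from 161 to 399 and Itga6, which encodes CD49f, from 77.2 to 146, and over the 3 stroma libraries from 0.493 to 1.55, 5.97 to 12.1 and 19.6 to 22.3. The summed FPKM of 12 fibroblast markers was 55.4 and 88.8 in Sox10+EpCAM+ fMaSC, 2590 and 4034 in CD24+CD49f+ fMaSC and 7809 to 8913 in stroma. The glial marker sum was 216 and 162 in CD24+CD49f+ fMaSC against 17.6 to 31.0 elsewhere, and the erythroid marker sum was 6870 and 730 there against 85.3 to 218 elsewhere. Melanoblast markers summed to 27.6 and 33.4 in Sox10+EpCAM+ fMaSC and 3.36 to 16.2 elsewhere, leukocyte markers to at most 16.5 and endothelial markers to at most 45.2 in any library. Pericyte markers summed to 6.65 and 9.28 in Sox10+EpCAM+ fMaSC and 31.1 to 122 elsewhere, and skeletal muscle markers to at most 13.9. No fibroblast, erythroid or endothelial marker was at 0 in any library. Ptprc and Tyrobp (leukocytes) and Myod1, Myf5 and Pax7 (muscle) were at 0 in Sox10+EpCAM+ replicate 1. Tyrp1, Tyr and Mlana (melanoblasts), Tyrobp and Cdh19 (glia) were at 0 in EpCAM-negative stroma. In CD24+CD49f+ replicate 2 Myod1, Myf5, Mlana and Higd1b (pericytes) were at 0, as were Higd1b in Sox10+EpCAM+ replicate 2 and Mlana in CD24low replicate 1. In these bulk samples, fewer cells of a type and less RNA per cell cannot be told apart.

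Snai2 and Vim kept high transcript levels in Sox10+EpCAM+ cells, and the other members did not. Snai2 was the only member that was higher in Sox10+EpCAM+ fMaSC than in EpCAM-negative stroma, and Vim was lower but still above 280 FPKM. Zeb2 and Snai1 remained at 1 to 3 FPKM, while Twist1, Twist2, Zeb1, Prrx1 and Prrx2 were below 1 FPKM in both Sox10+EpCAM+ libraries and between 12.1 and 50.0 FPKM in the stroma of that sort. Between these groups limma called 1 member higher and 8 lower at an adjusted p under 0.05, against 12.5% of the 14418 genes tested called higher and 13.6% called lower (26.1% in either direction). By library range 1 member lay above the stroma library and 8 below, where 50.3% and 41.5% of all genes tested did. The median member difference was −4.14 on the log2(FPKM + 1) scale, beside 0.09 over all genes tested. All 9 members stood above 5 FPKM in both CD24+CD49f+ fMaSC libraries, whose fibroblast marker sums were also above those of Sox10+EpCAM+ fMaSC (2590 and 4034 against 55.4 and 88.8 FPKM), and the part of fibroblast RNA in those levels was not tested.

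**Figure D1:**
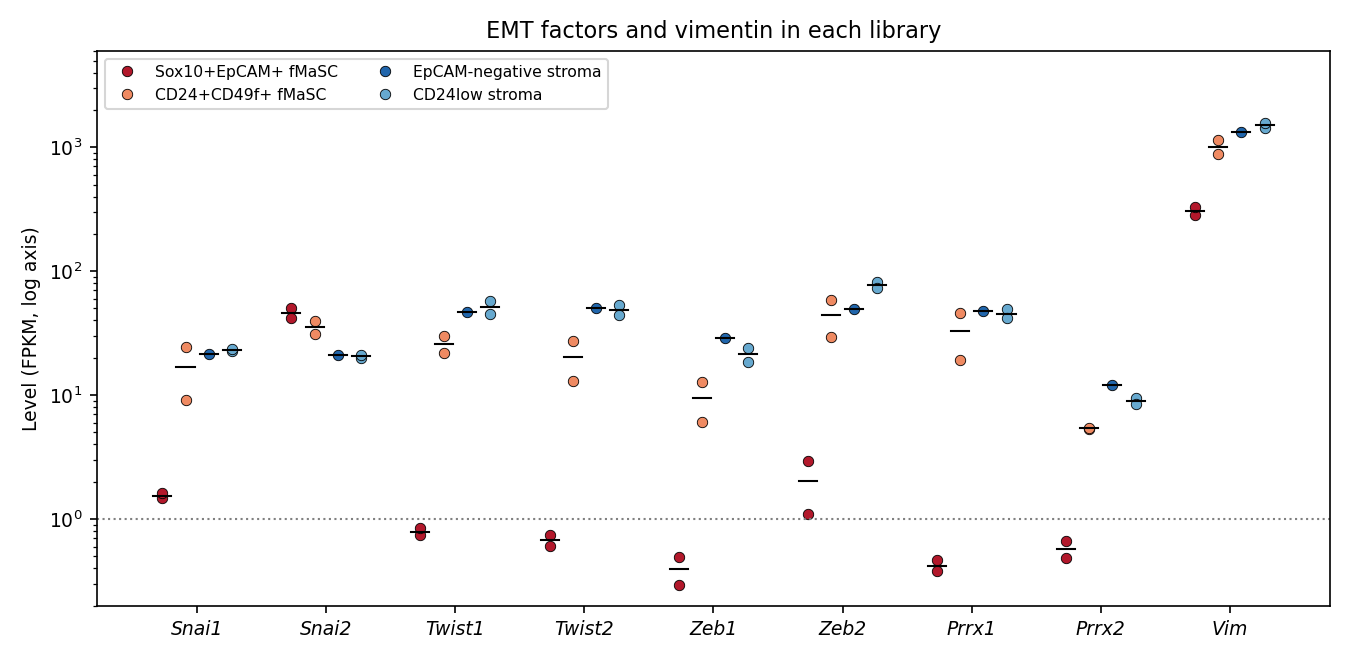
FPKM (log axis) of each member in each of the 7 libraries, coloured by group, with a bar at the group mean and a dotted line at 1 FPKM. Snai2 is the only member whose Sox10+EpCAM+ points lie above its stroma points, and 5 factors lie below the dotted line in Sox10+EpCAM+ fMaSC only.

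Snai2 encodes Slug, the Snail-family repressor, and lies at chr16:14705852-14709395 (GRCm38). Its level was 50.0 and 42.0 FPKM in Sox10+EpCAM+ fMaSC, 31.1 and 39.8 in CD24+CD49f+ fMaSC, 21.1 in EpCAM-negative stroma and 19.9 and 21.2 in CD24low stroma. In the deposited FPKM all 4 fMaSC libraries exceeded all 3 stroma libraries, with no overlap. The libraries would overlap if scaled to the same sum. CD24+CD49f+ replicate 1 had 31.1 of a summed 752737 FPKM, a smaller share than the 21.1 of 378952 in EpCAM-negative stroma. Against EpCAM-negative stroma the log2 difference was 1.09 ± 0.25 (SE), with a limma adjusted p of 0.0239. This call depended on the scaling and on single libraries. With every library scaled to the same sum the difference was 0.30 (limma adjusted p = 0.713), while the median of all genes tested moved from 0.09 to −0.63, so that Snai2 lay 0.93 above it. The deposited FPKM summed to 738869 and 607325 in the Sox10+EpCAM+ libraries and to 378952 in the stroma library, of which mitochondrial genes made up 19.0%, 15.6% and 6.23%, and the part of this in the result was not tested. Quantile scaling gave 0.84 (limma adjusted p = 0.0768), and leaving out either Sox10+EpCAM+ library or either CD24low library gave adjusted p-values of 0.0523 to 0.168 at differences of 0.96 to 1.21.

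Snai1, the founding member of the Snail family at chr2:167538195-167542814, had another order of levels. It measured 1.47 and 1.62 FPKM in Sox10+EpCAM+ fMaSC, 9.08 and 24.6 in CD24+CD49f+ fMaSC, 21.5 in EpCAM-negative stroma and 22.5 and 23.6 in CD24low stroma. Both Sox10+EpCAM+ libraries lay below all others, and CD24+CD49f+ replicate 2 lay above every stroma library. Snai1 was lower in Sox10+EpCAM+ fMaSC than in EpCAM-negative stroma by a mean ratio of 13.9, a log2 difference of −3.14 ± 0.51 (SE, limma adjusted p = 0.00703). In stroma the Snail genes were level, with a Snai2 to Snai1 ratio of 0.885 to 0.980. The ratio was 34.0 and 25.9 in Sox10+EpCAM+ fMaSC and 3.43 and 1.62 in CD24+CD49f+ fMaSC. The related gene Snai3, whose product is a further Snail-type zinc-finger protein, was read at 2.23 and 2.49 FPKM in the Sox10+EpCAM+ libraries and listed at 0 in EpCAM-negative stroma.

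Genes of epithelial junctions and polarity that these repressors are known to target were higher in the fMaSC fractions, as Snai2 was by library range of the deposited FPKM. All 14 listed epithelial targets were higher in Sox10+EpCAM+ fMaSC than in EpCAM-negative stroma (median log2 difference 4.16), and 13 of 14 were higher in the CD24 sort (median 3.31). The largest differences in the Sox10 sort were 6.69 for Epcam, 5.89 for Cldn4 (a claudin), 5.52 for Cldn7 and 5.11 for Cdh1, which encodes E-cadherin, each with a limma adjusted p of 0.000276 or lower. Epcam encodes the protein on which these groups were sorted, so its difference was set by the sort. To show the letters that Snail and Zeb zinc fingers read, the 250 bases before the start of Crb3 (a polarity gene), Ocln (occludin), Cldn4 and the member Snai1 are printed 5′ to 3′ from RefSeq (GRCm38.p6), with the E-box CACCTG and its reverse complement CAGGTG in capitals. Their positions are chr17:57061951-57062200 (plus strand) for Crb3, chr13:100552499-100552748 (minus strand) for Ocln, chr5:134946935-134947184 (minus strand) for Cldn4 and chr2:167537945-167538194 (plus strand) for Snai1.
Crb3: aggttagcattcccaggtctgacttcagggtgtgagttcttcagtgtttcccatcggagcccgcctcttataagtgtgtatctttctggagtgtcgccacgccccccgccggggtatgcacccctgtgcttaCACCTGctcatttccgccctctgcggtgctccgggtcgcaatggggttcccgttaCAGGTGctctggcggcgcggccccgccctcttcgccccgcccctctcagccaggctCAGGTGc
Ocln: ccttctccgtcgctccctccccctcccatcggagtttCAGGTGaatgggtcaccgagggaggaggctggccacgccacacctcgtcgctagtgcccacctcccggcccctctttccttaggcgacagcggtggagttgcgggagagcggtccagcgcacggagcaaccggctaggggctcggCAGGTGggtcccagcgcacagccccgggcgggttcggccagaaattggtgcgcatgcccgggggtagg
Cldn4: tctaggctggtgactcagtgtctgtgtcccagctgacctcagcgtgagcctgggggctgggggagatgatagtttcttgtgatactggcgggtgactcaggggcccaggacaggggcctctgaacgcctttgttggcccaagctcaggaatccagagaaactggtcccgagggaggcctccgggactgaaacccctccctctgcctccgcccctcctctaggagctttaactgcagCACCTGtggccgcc
Snai1: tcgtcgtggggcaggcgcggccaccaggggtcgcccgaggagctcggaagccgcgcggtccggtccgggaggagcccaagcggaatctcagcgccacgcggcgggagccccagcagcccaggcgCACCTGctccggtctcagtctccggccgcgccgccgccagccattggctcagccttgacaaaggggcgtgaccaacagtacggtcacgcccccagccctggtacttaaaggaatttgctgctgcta

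These letters are within the wider E-box pattern CANNTG that Twist proteins with E proteins also read. Crb3 holds 3 matches, whose first bases lie 118, 63 and 7 bases before the start, Ocln holds 2 at 213 and 68 bases, Cldn4 holds 1 at 14 bases and Snai1 holds 1 at 126 bases. Shares of genes with the motif were counted over whole RefSeq windows, which run on past the start and are longer than the printed stretches. Of the 14 epithelial targets 11 have a window in the table, and 9 of these (81.8%) hold the motif on either strand. Over all 32851 such windows the share was 20.2%, and counted by gene, in any window, 22.6% of 27025. Among the members 7 have a window and Snai1 alone holds the motif, and Snai2 and Zeb1 have none in the table. Of the epithelial regulators with a window, 3 of 7 hold it (42.9%, Elf3, Elf5 and Foxa1). Of the mesenchymal effectors with a window, 1 of 8 holds it (Sparc), and of the fibroblast markers 1 of 7 (Dpt). A match describes letters and is not evidence of binding in these cells.

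Twist1 and Twist2, factors of cranial, limb and dermal mesenchyme, were high in stroma and low in Sox10+EpCAM+ cells. Twist1 (chr12:33957671-33959817) measured 0.739 and 0.844 FPKM in Sox10+EpCAM+ fMaSC, 21.7 and 29.9 in CD24+CD49f+ fMaSC, 47.1 in EpCAM-negative stroma and 57.2 and 45.4 in CD24low stroma. Twist2 (chr1:91801461-91848028) measured 0.749 and 0.606 FPKM in Sox10+EpCAM+ fMaSC, 13.0 and 27.5 in CD24+CD49f+ fMaSC, 50.0 in EpCAM-negative stroma and 53.0 and 44.2 in CD24low stroma. For both genes the Sox10+EpCAM+ libraries were lowest, the CD24+CD49f+ libraries intermediate and the stroma libraries highest, with no overlap. The Sox10+EpCAM+ levels corresponded to about 32 and 40 fragments for Twist1 and 51 and 45 for Twist2, so both were low and above 0. Against EpCAM-negative stroma Twist1 differed by −4.75 ± 0.27 (SE) and Twist2 by −4.93 ± 0.42 on the log2 scale, with limma adjusted p-values of 0.000306 and 0.000809. The ratio of Twist1 to Twist2 stayed between 0.941 and 1.68 in every library.

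Zeb1 and Zeb2 encode large zinc-finger and homeodomain repressors that form a mutually repressive loop with the microRNAs of the miR-200 family. Zeb1 (chr18:5591860-5775467) measured 0.294 and 0.498 FPKM in Sox10+EpCAM+ fMaSC, 6.04 and 12.8 in CD24+CD49f+ fMaSC, 28.7 in EpCAM-negative stroma and 24.0 and 18.7 in CD24low stroma. Zeb2 (chr2:44983634-45117395) measured 1.10 and 2.94 FPKM in Sox10+EpCAM+ fMaSC, 29.4 and 58.7 in CD24+CD49f+ fMaSC, 49.6 in EpCAM-negative stroma and 81.1 and 72.6 in CD24low stroma. Zeb1 kept the order seen for the Twist genes, whereas for Zeb2 the CD24+CD49f+ libraries lay on either side of the EpCAM-negative stroma. The Zeb2 values of the Sox10+EpCAM+ libraries differed from each other by a larger ratio than those of the other members (271 and 789 approximate fragments). Against EpCAM-negative stroma the log2 differences were −4.42 ± 0.41 (SE) for Zeb1 and −4.14 ± 0.51 for Zeb2, with limma adjusted p-values of 0.00111 and 0.00273. Zeb2 exceeded Zeb1 in every library, by 1.72 to 5.91 times. Antisense genes share exon sequence with these genes, and since strand-aware counting is not stated in the sources used here their reads cannot be told apart: Zeb2os was read at 0.0356 and 0.177 FPKM in the Sox10+EpCAM+ libraries, with at most 2.57 elsewhere, and Gm10125, opposite Zeb1, was at most 1.29. The 5 miR-200 family hairpin entries were listed at 0 in all libraries, so the table gives no level for these small RNAs. Twist2 likewise overlaps an antisense gene, Gm29100, for which no value was used here.

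Prrx1 and Prrx2 encode homeodomain factors of limb and craniofacial mesenchyme. Prrx1 (chr1:163245116-163313710) measured 0.381 and 0.463 FPKM in Sox10+EpCAM+ fMaSC, 19.2 and 46.3 in CD24+CD49f+ fMaSC, 47.8 in EpCAM-negative stroma and 49.0 and 41.6 in CD24low stroma. Its log2 difference in the Sox10 sort, −5.10 ± 0.48 (SE, limma adjusted p = 0.00111), was the furthest from 0 of all members and ranked 49 from the lowest of 14418 genes. CD24+CD49f+ replicate 2 lay within the stroma range and replicate 1 below it. Prrx2 (chr2:30834972-30881241) measured 0.666 and 0.483 FPKM in Sox10+EpCAM+ fMaSC, 5.37 and 5.42 in CD24+CD49f+ fMaSC, 12.1 in EpCAM-negative stroma and 9.43 and 8.50 in CD24low stroma. It was the least abundant member in stroma, and its groups did not overlap. The Prrx2 difference of −3.06 ± 0.20 (SE, limma adjusted p = 0.000375) rests on about 26 and 20 fragments in the Sox10+EpCAM+ libraries. Prrx1 exceeded Prrx2 by 3.58 to 8.54 times in stroma and CD24+CD49f+ fMaSC, and lay below it in Sox10+EpCAM+ fMaSC, at ratios of 0.571 and 0.958.

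Vim (chr2:13573927-13582826) was the most abundant member in every library. Its level was 284 and 331 FPKM in Sox10+EpCAM+ fMaSC, 878 and 1135 in CD24+CD49f+ fMaSC, 1326 in EpCAM-negative stroma and 1436 and 1579 in CD24low stroma. The groups kept that order without overlap, and Vim ranked 342 and 273 among the 38579 entries in Sox10+EpCAM+ fMaSC and 22 to 49 in stroma. The log2 difference in the Sox10 sort was −2.11 ± 0.49 (SE, limma adjusted p = 0.0251), a mean ratio of 4.31. Leaving out either Sox10+EpCAM+ library or either CD24low library ended this call, with adjusted p-values of 0.0554 to 0.219 at differences of −2.22 to −2.00. Keratins, the filaments of epithelium, were measured beside it: the summed FPKM of Krt5, Krt14, Krt8 and Krt18 was 383 and 489 in Sox10+EpCAM+ fMaSC, 312 and 178 in CD24+CD49f+ fMaSC and 1.32 to 4.28 in stroma. Vim therefore stood at 0.741 and 0.677 times the keratin sum in Sox10+EpCAM+ fMaSC, at 2.81 and 6.37 times in CD24+CD49f+ fMaSC and at 310 to 1197 times in stroma. Of the other filament genes in the Sox10 sort, Nes (nestin) and Des (desmin) fell and Lmna, which encodes the nuclear lamins A and C, was not called, at 128 and 160 against 146 FPKM.

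Snai2 made up most of the EMT factor transcripts of Sox10+EpCAM+ cells. Its share of the summed FPKM of the 8 factors was 90.3% and 84.9% there, 23.1% and 16.3% in CD24+CD49f+ fMaSC, 7.58% in EpCAM-negative stroma and 6.30% and 7.68% in CD24low stroma. The sum itself was 55.4 and 49.5 FPKM in Sox10+EpCAM+ fMaSC, 135 and 245 in CD24+CD49f+ fMaSC and 276 to 316 in stroma. Without Snai2 it was 5.40 and 7.45 FPKM in Sox10+EpCAM+ fMaSC and 255 to 296 in stroma. In stroma no factor held more than 26.3% of the sum, the largest share of the CD24low libraries being that of Zeb2. By mean level the order in Sox10+EpCAM+ fMaSC was Vim, Snai2, Zeb2, Snai1, Twist1, Twist2, Prrx2, Prrx1 and Zeb1. Neighbours in that order overlapped over the libraries for Zeb2 with Snai1, Twist1 with Twist2, Twist2 with Prrx2, and Prrx1 with Zeb1. In CD24low stroma the order was Vim, Zeb2, Twist1, Twist2, Prrx1, Snai1, Zeb1, Snai2 and Prrx2, with Twist1, Twist2 and Prrx1 overlapping in turn, as did Snai1, Zeb1 and Snai2.

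**Figure D2:**
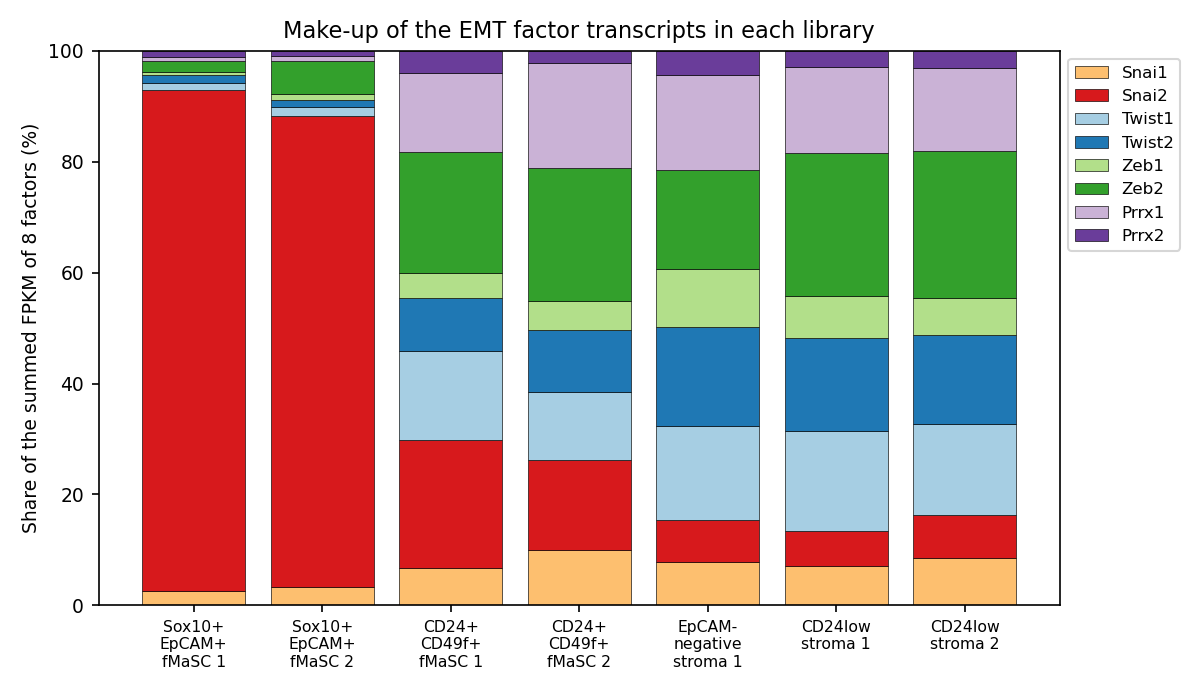
Share (%) of each factor in the summed FPKM of the 8 EMT factors, 1 stacked bar per library. Snai2 fills 84.9% or more of the bar in both Sox10+EpCAM+ libraries and 6.30% to 23.1% in the others.

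In the CD24 sort the members differed less between fMaSC and stroma. Limma called 0 members higher and 1 lower between CD24+CD49f+ fMaSC and CD24low stroma, against 7.78% and 2.94% of all genes tested (10.7% in either direction). At an unadjusted limma p under 0.05 the counts were 1 higher and 4 lower. No share over all genes was counted at that threshold, here or for the unadjusted counts below. The called gene was Twist1, at −0.97 ± 0.22 (SE, limma adjusted p = 0.0432), and 10 of 15 alternative settings ended that call, with adjusted p up to 0.306. Twist2 (−1.31), Zeb1 (−1.17), Zeb2 (−0.87), Prrx2 (−0.64), Vim (−0.59), Snai1 (−0.58) and Prrx1 (−0.58) had negative values and Snai2 a positive one (0.75), with limma adjusted p-values of 0.0594 to 0.448. By library range of the deposited FPKM, Snai2 lay above stroma, 6 members lay below, and Snai1 and Prrx1 overlapped it. Over all genes tested, 30.4% lay above and 17.7% below without overlap. The median member difference was −0.64, beside 0.13 over all genes. CD24+CD49f+ replicate 2 held 1.01 to 2.71 times the level of replicate 1 for every member, and its fibroblast marker sum was higher as well (4034 against 2590). Its erythroid marker sum (730 against 6870), summed FPKM (424984 against 752737) and mitochondrial share (9.94% against 17.9%) were lower. The part of any of these in the member levels was not tested. Which members limma called depended on the replicate left out. Without replicate 2 the differences were −1.82 for Twist2, −1.65 for Zeb1, −1.25 for Snai1 and −1.19 for Prrx1, and lower calls rose both for members and over all genes. Without replicate 1 they were 0.92 for Snai2 and −0.75 for Twist1.

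The fMaSC fractions were also set against each other. Limma called 7 members lower and 0 higher in Sox10+EpCAM+ fMaSC than in CD24+CD49f+ fMaSC, where 8.04% of genes tested were lower and 1.95% higher (9.99% in either direction). The unadjusted counts were 8 lower and 0 higher, with no share over all genes counted at that threshold. By library range of the deposited FPKM 8 members lay below and Snai2 above, where 30.3% and 21.2% of all genes did. The median member difference was −2.83, beside −0.01 over all genes. Prrx1 differed by −4.44 (limma adjusted p = 0.00264), Zeb2 by −3.89 (0.00437), Twist1 by −3.89 (0.000945), Twist2 by −3.57 (0.00326), Zeb1 by −2.83 (0.00636), Snai1 by −2.66 (0.0153) and Prrx2 by −2.02 (0.00195). The Snai1 call ended without a filter on low values and without either Sox10+EpCAM+ library (limma adjusted p = 0.0784 to 0.121), and the Zeb1 call without a filter and without Sox10+EpCAM+ replicate 1 (0.0501 and 0.0669). Vim, at −1.70 ± 0.40 (SE, limma adjusted p = 0.0512), was not called, but passed in 4 of 14 alternative settings, and the count of lower members ran from 5 to 8. Neither was Snai2, at 0.37 ± 0.20 (SE) with a 95% interval of −0.12 to 0.87 (limma adjusted p = 0.357). All 12 fibroblast markers were lower in Sox10+EpCAM+ fMaSC too, with a median difference of −5.39, as were 7 of 8 glial and 6 of 8 endothelial markers. The part of these other cells in the member differences was not tested.

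The fMaSC to stroma difference was larger in the Sox10 sort than in the CD24 sort for 4 members, by the test of the difference between both log2 differences. They were Prrx1 (−4.52, limma adjusted p = 0.0335), Twist1 (−3.78, 0.0163), Twist2 (−3.62, 0.0404) and Prrx2 (−2.42, 0.0189). All 4 calls ended with every library scaled to the same sum (limma adjusted p = 0.0563 to 0.127). Those of Twist2 and Prrx1 also ended without a filter and with quantile scaling (limma adjusted p = 0.0660 to 0.118). All 4 ended too when either Sox10+EpCAM+ library or either CD24low library was left out, where nearly all calls over all genes were lost. The differences there were −4.64 to −4.41 for Prrx1, −3.94 to −3.61 for Twist1, −3.75 to −3.49 for Twist2 and −2.51 to −2.34 for Prrx2. Without CD24+CD49f+ replicate 1 the differences were −3.76 for Zeb2, −3.74 for Zeb1 and −3.23 for Snai1, and calls rose both for members and over all genes. No member was called in the other direction. Of all genes tested 1.44% were called lower and 0.0763% higher by this test (1.51% in all). Without adjustment 7 members had a limma p under 0.05, all lower, with no share over all genes counted at that threshold. Zeb2 (−3.27), Zeb1 (−3.25), Snai1 (−2.56), Vim (−1.52) and Snai2 (0.34) did not pass, with limma adjusted p-values of 0.0538 to 0.693. Of the fibroblast markers, 10 of 12 were called lower by the same test.

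**Figure D3:**
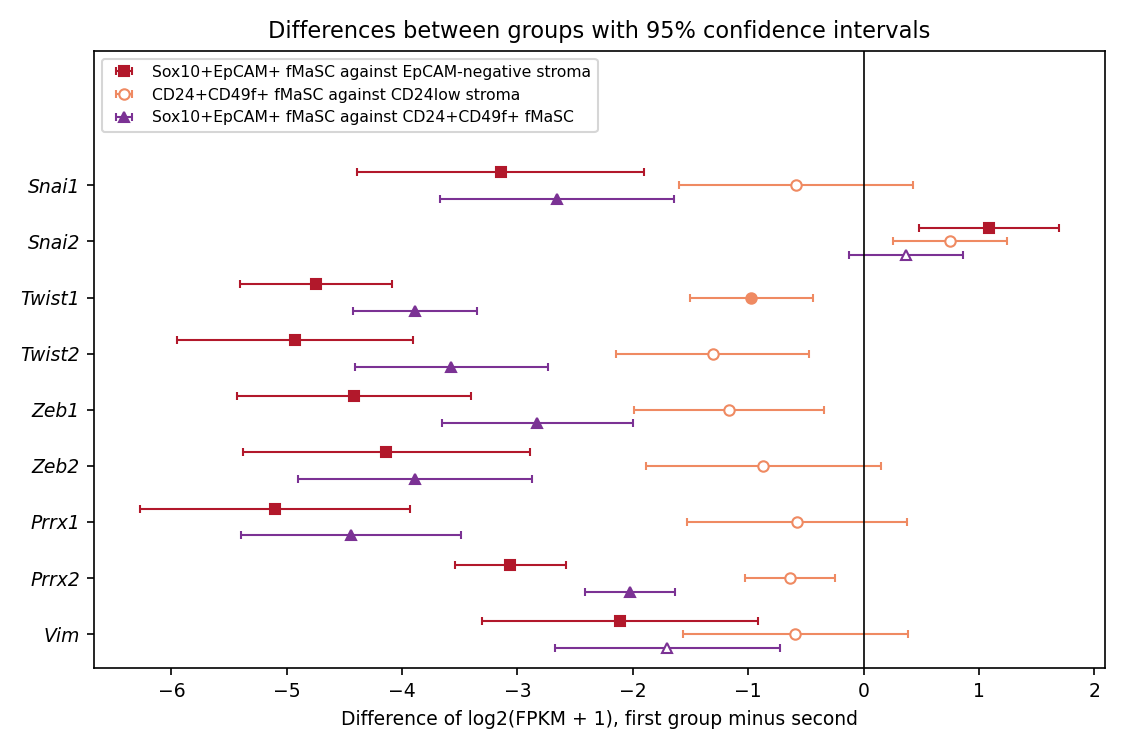
Difference of log2(FPKM + 1) for each member in 3 comparisons, with 95% confidence intervals from limma and filled symbols for an adjusted p under 0.05. Snai2 is the only member to the right of 0 in all 3, and only Twist1 is filled in the CD24 sort.

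With both sorts pooled in a fit of cell type plus strategy, Snai2 was the member called higher in fMaSC, at 0.88 ± 0.16 (SE, limma adjusted p = 0.0112). Twist2 (−2.76), Twist1 (−2.48), Zeb1 (−2.47) and Prrx2 (−1.61) were called lower, with adjusted p-values of 0.0341 to 0.0468. Of all genes tested 15.6% were called higher and 9.5% lower (25.1% in either direction). Prrx1 (−2.39), Zeb2 (−2.18), Snai1 (−1.61) and Vim (−1.20) had adjusted p-values of 0.0568 to 0.0900. The lower calls varied from 0 to 8 members when 1 library was left out, and the Snai2 call ended without the EpCAM-negative library (0.75, limma adjusted p = 0.0720) and with every library scaled to the same sum (0.40, 0.411). By library range of the deposited FPKM Snai2 was above stroma and 5 members below, where 23.3% and 13.7% of all genes were.

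Between the stroma fractions limma called 0 members, where 0.0277% of genes tested were called (0.0139% in each direction), and 0 members had an unadjusted p under 0.05. The widest interval, that of Zeb2, ran from −1.87 to 0.62 on the log2 scale. Prrx2 was at 12.1 FPKM in EpCAM-negative stroma against 8.50 and 9.43 in CD24low stroma, a difference of 0.40 with a 95% interval of −0.08 to 0.88.

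Member levels in fMaSC were set beside those of the fibroblast markers, each as a percent of the stroma mean of the same sort. In Sox10+EpCAM+ replicates 1 and 2 the median fibroblast marker stood at 0.629% and 1.16% of stroma, within ranges of 0.242% to 10.1% and 0.521% to 10.5%. The members had medians of 2.22% and 3.98%. Prrx1 (0.796% and 0.968%), Zeb1 (1.02% and 1.73%), Twist1 (1.57% and 1.79%), Twist2 (1.50% and 1.21%), Zeb2 (2.22% and 5.94%), Prrx2 (5.50% and 3.98%) and Snai1 (6.85% and 7.53%) lay within the fibroblast marker range. Vim, at 21.4% and 25.0%, and Snai2, at 237% and 200%, lay above it. These percents use the deposited FPKM, and scaling every library to the same sum would lower all those of a Sox10+EpCAM+ library by a shared factor. So scaled, the Snai2 difference from stroma was 0.30 on the log2 scale. The top of each range was Pdgfra, and the next highest marker was Fbn1, at 3.35% and 4.28%. Snai1 in both replicates, Prrx2 in replicate 1 and Zeb2 in replicate 2 lay above Fbn1. In CD24+CD49f+ replicates 1 and 2 the fibroblast medians were 30.7% and 44.7% and the member medians 42.4% and 75.3%. Both medians were higher in replicate 2, and the part of fibroblast RNA in the member levels was not tested.

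**Figure D4:**
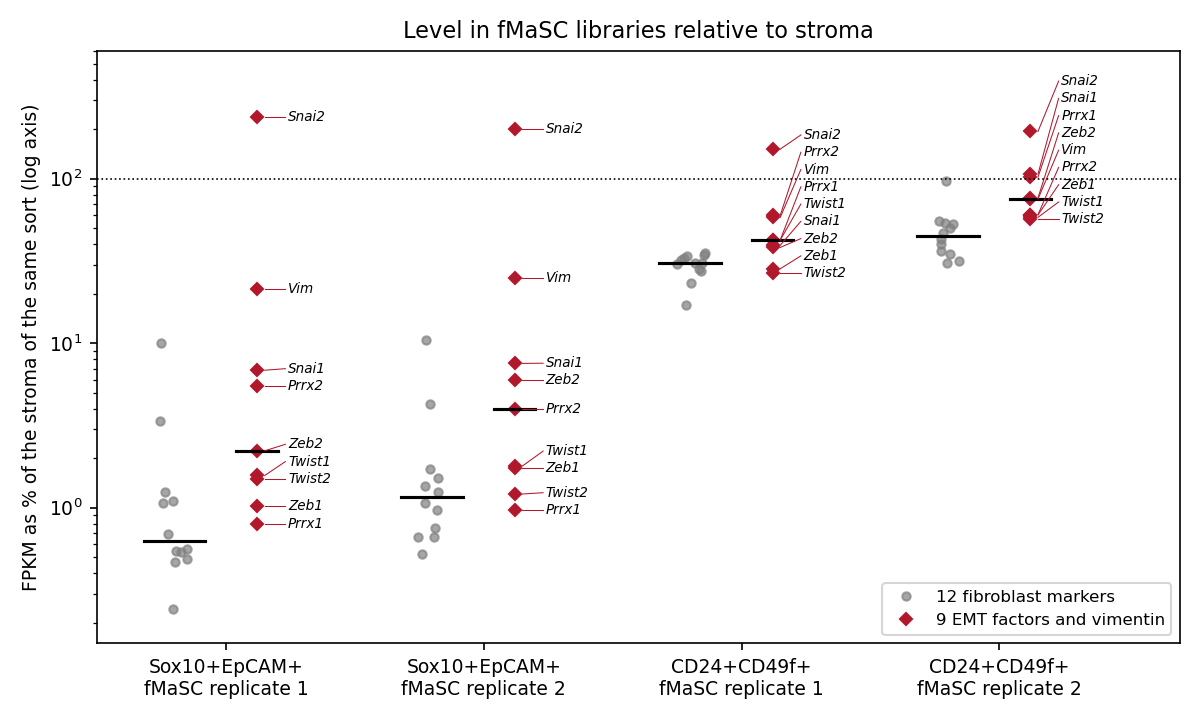
FPKM in each fMaSC library as a percent of the stroma mean of the same sort (log axis), for the 12 fibroblast markers (grey) and the 9 members (red), with bars at the medians and a dotted line at the stroma level. In both Sox10+EpCAM+ libraries Vim and Snai2 lie above all grey points. The FPKM are as deposited and not scaled to the same sum.

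Genes that work with or against the factors were listed beside them. Of the other EMT-linked factors, 7 of 11 were tested. Foxc1, a forkhead factor, and Snai3 were higher in fMaSC in both sorts (2.51 and 1.75 in the Sox10 sort, 1.64 and 0.84 in the CD24 sort), and Gsc, Foxf1 and Foxc2 were lower in the Sox10 sort. Foxc1 measured 6.37 and 6.81 FPKM in Sox10+EpCAM+ fMaSC against 0.328 in EpCAM-negative stroma. Of 7 E proteins (the dimer partners of Twist) and Id proteins (which sequester E proteins), Id2 and Id4 were higher in both sorts and Id1 was lower in the Sox10 sort (−1.63, limma adjusted p = 0.0248). The E proteins Tcf3, Tcf4 and Tcf12 were above 11 FPKM in every library and none was called in either sort. Of 9 corepressors of Snail and Zeb, Ctbp2 alone was called, higher in both sorts (1.23 and 0.72). Of 6 genes for Snail protein turnover, Fbxl14, a ubiquitin ligase subunit, was higher in the Sox10 sort (0.88, limma adjusted p = 0.0261) and none was called in the CD24 sort, where 3 were higher at an unadjusted limma p under 0.05.

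Of 12 EMT inducers (TGF-beta, BMP and HGF signalling), Met, the HGF receptor gene, was higher in Sox10+EpCAM+ fMaSC than in EpCAM-negative stroma (1.23, limma adjusted p = 0.0103), while Bmp4 (−1.90) and Hgf (−1.52) were lower. None of the 12 was called in the CD24 sort, with 0 at an unadjusted limma p under 0.05. Of 14 mesenchymal effectors, matrix and adhesion genes that accompany EMT, 12 were lower in the Sox10 sort, led by Postn (−6.53), Lox (−6.08), Cdh11 (−4.48) and Fn1 (−4.18). None was called in the CD24 sort, where 7 were lower at an unadjusted limma p under 0.05. Their medians were −2.24 and −0.80. Acta2 and Tagln, contractile genes of smooth muscle and of myoepithelium, were not called in either sort: Acta2 measured 50.0 and 56.9 FPKM in Sox10+EpCAM+ fMaSC against 71.8 in stroma. Of 12 epithelial regulators that oppose the EMT factors, 11 were higher in both sorts, with medians of 3.49 and 2.47, among them Esrp1, a splicing factor (4.76), Gata3 (4.32) and Ovol1 (4.17) in the Sox10 sort. The exception was Klf4, which was not called, with 21.4 and 31.2 FPKM in the Sox10+EpCAM+ libraries against 40.3 in EpCAM-negative stroma.

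**Figure D5:**
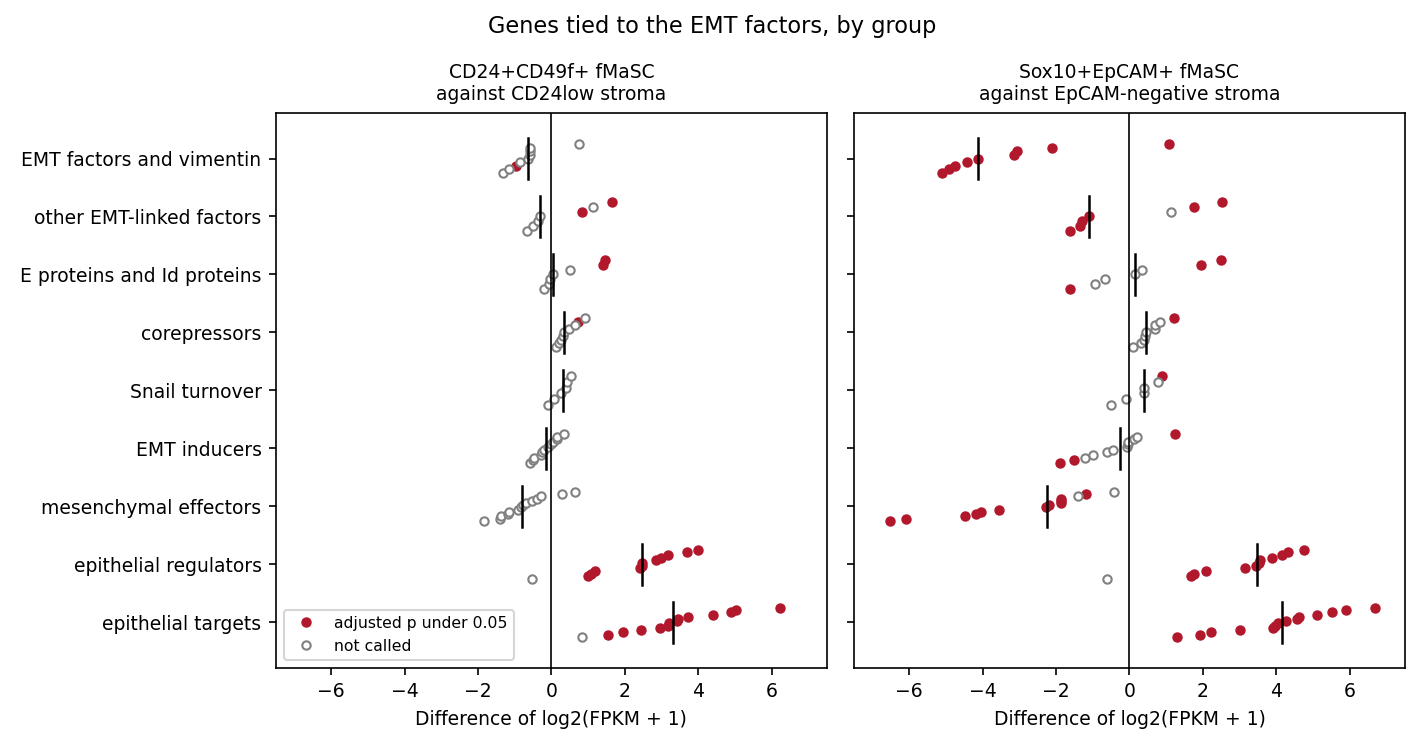
Difference of log2(FPKM + 1) between fMaSC and stroma for each tested gene of 9 lists, in the CD24 sort (left) and the Sox10 sort (right), with filled points for a limma adjusted p under 0.05 and bars at list medians. The member median is −0.64 on the left and −4.14 on the right, and that of the epithelial targets is 3.31 and 4.16.

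Over the 7 libraries, 8 members followed each other and Snai2 ran against them. Pearson's r of log2(FPKM + 1) between the 8 other members was 0.95 to 0.99, and that of Snai2 with each of them −0.88 to −0.77, as a description over libraries that share sort and depth. Of 4299 genes of sufficient level and range, those most like Snai2 were Aire (0.992), Ifnlr1 (0.991), Camkv (0.990), Whrn (0.989) and Slc39a8 (0.988). Those most like Vim were Gsn (0.999), Iigp1, Srpx, Klhl13 and Medag (each 0.998). Twist1 was most like Pkdcc, Mfap4, Meox2, Bgn and Cxcl12, Twist2 like Dlc1, Tbx18, Ccdc80 and Gata6, and Zeb1 like Kank2, Rassf2, Ednra, Clmp and Egr1, each at 0.998 or 0.999. Prrx1 was most like Nespas, Gdf10, Nrp1, Camk2d and Eml1 (0.997 to 0.999), and Snai1 like Bmper, Lepr, Birc3, Gfpt2 and Tbx15 (0.998 or 0.999). Zeb2 was most like Wnt11, Fam102b, Nid2, Nid1 and Prss35 (0.995 or 0.996), and Prrx2 like Il11ra1, Ctsf, Mirg, Rem1 and Pth1r (0.996 to 0.998).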

How the data were processed

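Cells were sorted from CD1 embryos and RNA libraries made with Illumina TruSeq kits, per the labels' protocols, and the submitters' processing notes name STAR, Cufflinks and the build GRCm38/mm10, with no versions. The authors deposited FPKM per gene, per the file headers, in 1 column per library, and every column was used. Symbols were matched without regard to case. Depth was estimated from FPKM steps of low genes and is approximate (58.9% to 64.5% of values within 0.15 of a whole number). The 4 group means were fitted to log2(FPKM + 1) with limma 3.58.1 (R 4.3.3), a scale that understates changes of low genes, for entries at 1 FPKM or more in at least 2 of 7 libraries (14418, all 9 members included), with a variance trend, two-sided tests and Benjamini-Hochberg adjustment at 0.05. Of 8 added sequences none was tested. The fit was tested on simulated data. The members, the 17 lists and the named genes (all members, and up to 4 called genes per list with the largest differences, besides genes given as measured background) were chosen with earlier results of these data known, and genes named beyond that, such as Acta2, Tagln, Lmna and Klf4, after their values were seen. Some genes that these rules name are not reported here. The fit on the CD24 sort alone was added after seeing the data. Figures were drawn with matplotlib 3.10.9, and tables made with pandas 2.3.3 and numpy 2.4.6 under Python 3.11.15.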

Additional observations from a re-analysis of the deposited data

Results flagged for a closer look

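For 4 members the fMaSC to stroma difference itself differed between the sorting strategies by limma's interaction test on the log2 scale. The values, Sox10 sort minus CD24 sort, were −4.52 for Prrx1, −3.78 for Twist1, −3.62 for Twist2 and −2.42 for Prrx2, with limma adjusted p-values of 0.0335, 0.0163, 0.0404 and 0.0189. The calls ended in 7 of 13 alternative settings for Prrx1 and Twist2 and in 5 of 13 for Twist1 and Prrx2, and the sign was kept in all 13. Among these settings was the omission of either Sox10+EpCAM+ or either CD24low library, where nearly all calls over all genes were lost too. Each of the 4 was below 1 FPKM in both Sox10+EpCAM+ libraries and above 5 FPKM in both CD24+CD49f+ libraries. The fibroblast marker sum moved the same way (55.4 and 88.8 against 2590 and 4034 FPKM), and its part in the result was not tested.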

How the results depend on the processing

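No member value changed to a call in the opposite direction under any setting. In the CD24 sort the 1 lower member became 0 with a pseudocount of 0.1, without a filter on low values, with every library scaled to the same sum (TPM) and in a fit of that sort alone, 3 with median-of-ratios scaling, and 0 to 5 when 1 library was left out; members higher ran from 0 to 1. Quantile scaling also gave 1, which was Prrx2. In the Sox10 sort the 1 higher member became 0 with TPM and with quantile scaling and ran from 0 to 1 with 1 library left out, while 7 to 8 members stayed lower. In the pooled fit the 4 lower members became 1 with a pseudocount of 0.1, 0 without a filter and 1 with TPM scaling, and 0 to 8 with 1 library left out, and the 1 higher became 0 with TPM scaling and ran from 0 to 1. The 4 members that differed between strategies became 2 without a filter, 0 with TPM, 2 with quantile scaling and 0 to 7 with 1 library left out. Between the fMaSC fractions the 7 lower members ran from 5 to 8. Calls over all genes also moved when 1 library was left out. Between strategies they fell without a Sox10+EpCAM+ or CD24low library and rose without a CD24+CD49f+ library. The cause of these changes was not tested. TPM scaling moved the median of all genes from 0.13 to −0.12 in the CD24 sort and from 0.12 to −0.32 in the pooled fit. Over all genes, calls higher and lower were 594 and 1619 with TPM against 1803 and 1959 in the Sox10 sort, 855 and 772 with quantile scaling against 1121 and 424 in the CD24 sort, and 792 and 812 with TPM against 2252 and 1369 in the pooled fit. Other settings gave 433 and 123 (TPM), 961 and 728 (median-of-ratios), 704 and 135 (that sort alone) and 247 lower (no filter) in the CD24 sort, and 1663 and 2056 (quantile), 1681 and 2071 (median-of-ratios) and 863 lower (no filter) in the pooled fit. Between the fMaSC fractions 281 and 1159 became 13 and 518 (TPM), 526 and 816 (quantile), 112 and 1377 (pseudocount 0.1) and 169 and 555 (no filter). Between strategies 11 and 207 became 9 and 50 (TPM), 12 and 92 (quantile), 18 and 403 (pseudocount 0.1), 23 higher (no filter) and 6 higher (1 FPKM in 4 libraries). Between the stroma fractions 2 and 2 became 229 and 6 without a filter, 0 and 1 with 1 FPKM in 4 libraries, and 4 lower with quantile scaling. No paired analysis was possible because the labels give no replicate numbers that groups share. Precision is limited for Twist1, Twist2, Zeb1, Prrx1, Prrx2 and Snai1 in Sox10+EpCAM+ fMaSC, which rest on about 20 to 89 fragments per library.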
